A study of Homo sapiens with 2 samples.

Results

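TRF2 is the shelterin subunit that guards telomeres by binding their TTAGGG repeats directly, and the subtelomere is the stretch of chromosome just inside those repeats. The peaks described here are the TRF2 peaks of HCT116, an established colorectal carcinoma line, whose summit lay within 2 Mb of either end of chromosomes 1 to 22 in the human assembly hg38. There were 162 such peaks among the 24258 that the authors called. They came from 1 library immunoprecipitated with an antibody to TRF2, set against 1 input library of the same line made without antibody. Cells of both were fixed with 1% formaldehyde 72 h after they were plated, with no treatment or genotype labelled, and 5 μg of antibody was used on 100 μg of chromatin. The name of the deposited list mentions a control siRNA that the labels do not, so whether the cells were transfected is uncertain. Cell identity could not be checked against markers, since a peak list holds no expression. The 44 chromosome ends compared are therefore ends within 1 sample of 1 line, and no difference between samples could be tested. Intervals below are 95% and cover counting error only.

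Telomeric DNA is bound by the Myb domains of TRF1 and TRF2, and TRF2 keeps the end from being read as a break and helps to fold it into a loop. Telomere repeats are also transcribed, from CpG-rich tandem repeats just inside them, into an RNA called TERRA. Subtelomeres are patchworks of segments copied between chromosome ends, with stretches of telomere-like repeats in their interior and gene families such as WASH, DDX11L, OR4F, FAM157 and DUX4.

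The sequences nearest to the outermost peaks show this patchwork. No genome sequence was used here, so the peaks themselves cannot be printed. RefSeq promoter windows of 300 bases (GRCh38.p14, the same primary assembly, read along the gene's strand) take their place. None of the 2002 promoter windows within 2 Mb of an end overlapped a peak, and 12 lay within 3 kb of one. At the short-arm end of chromosome 3 the window of the long noncoding RNA gene LINC01986 (chr3:11501-11800, plus strand) lay outside the terminal peak, 554 bases beyond its inner edge. The fold of that peak over input was 11.2. Fold is the authors' ratio of TRF2 reads at a peak's summit to the local background estimated from input, with 1 added to both. At the long-arm end of chromosome 11 the window of LINC02684 (chr11:135076148-135076447, minus strand) lay 78 bases from the terminal peak, of fold 6.28. Both are shown because they are built of one unit, GCGCCGGCGCAGGCGCAGAGAGGCGCGC, printed in capitals. It is the longest stretch found more than once in both:
LINC01986: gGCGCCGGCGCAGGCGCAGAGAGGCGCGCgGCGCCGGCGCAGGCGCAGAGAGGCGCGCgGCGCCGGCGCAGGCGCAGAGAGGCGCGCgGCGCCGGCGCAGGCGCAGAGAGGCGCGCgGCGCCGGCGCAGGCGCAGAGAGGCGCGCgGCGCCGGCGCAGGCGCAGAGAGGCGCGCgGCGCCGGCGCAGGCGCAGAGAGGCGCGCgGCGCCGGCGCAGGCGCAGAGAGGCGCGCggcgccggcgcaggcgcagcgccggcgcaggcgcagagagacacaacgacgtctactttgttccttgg
LINC02684: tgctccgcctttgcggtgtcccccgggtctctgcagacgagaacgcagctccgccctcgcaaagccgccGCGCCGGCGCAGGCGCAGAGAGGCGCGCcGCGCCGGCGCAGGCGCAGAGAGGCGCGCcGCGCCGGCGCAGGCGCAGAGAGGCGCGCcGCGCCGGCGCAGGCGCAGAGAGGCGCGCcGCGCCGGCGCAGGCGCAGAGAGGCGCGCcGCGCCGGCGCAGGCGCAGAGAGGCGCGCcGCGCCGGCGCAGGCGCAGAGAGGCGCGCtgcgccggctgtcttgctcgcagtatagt
The unit recurred every 29 bases, in 8 copies at 3p and 7 copies at 11q. On either strand it was found in only these 2 of the 35116 RefSeq promoter windows (0.0057%). It was chosen for this search after both sequences had been seen. GC content was 82.3% and 79.7%, with 66 and 60 CpG dinucleotides, against a median of 58.7% and 14 over all promoter windows.

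Another pair of ends shares a different sequence. The window of LOC102723376 at 10p (chr10:11471-11770) and the inner of the 2 windows of LINC02564 at 18p (chr18:11825-12124), both on the plus strand, were identical at 299 of 300 bases. They lay outside terminal peaks of fold 7.28 and 11.1, 1010 and 1161 bases beyond the inner edges of those peaks. The differing base is in capitals and, counted from the 5′ end of the window, is C296G from 10p to 18p:
LOC102723376: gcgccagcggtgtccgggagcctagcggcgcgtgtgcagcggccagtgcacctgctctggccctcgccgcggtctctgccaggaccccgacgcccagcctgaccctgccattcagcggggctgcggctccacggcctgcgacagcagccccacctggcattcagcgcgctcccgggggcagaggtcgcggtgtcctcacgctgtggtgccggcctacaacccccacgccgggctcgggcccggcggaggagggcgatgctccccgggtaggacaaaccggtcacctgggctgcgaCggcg
LINC02564: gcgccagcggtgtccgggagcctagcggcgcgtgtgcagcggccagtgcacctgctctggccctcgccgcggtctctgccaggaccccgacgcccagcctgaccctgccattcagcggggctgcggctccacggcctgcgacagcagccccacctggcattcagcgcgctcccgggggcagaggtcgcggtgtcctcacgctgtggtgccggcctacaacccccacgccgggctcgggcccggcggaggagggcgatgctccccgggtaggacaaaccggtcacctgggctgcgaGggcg
The third pair lay further in. SCGB1C1 at 11p (chr11:192828-193127) and SCGB1C2 at 17p (chr17:137319-137618) are secretoglobin genes, and their windows also matched at 299 of 300 bases, with T269C from 11p to 17p in capitals:
SCGB1C1: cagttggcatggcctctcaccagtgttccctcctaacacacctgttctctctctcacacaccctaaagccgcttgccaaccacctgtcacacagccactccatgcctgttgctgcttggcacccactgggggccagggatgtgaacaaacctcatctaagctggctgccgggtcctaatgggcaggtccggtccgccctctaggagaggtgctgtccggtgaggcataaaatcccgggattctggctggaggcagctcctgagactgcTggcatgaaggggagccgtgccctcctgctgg
SCGB1C2: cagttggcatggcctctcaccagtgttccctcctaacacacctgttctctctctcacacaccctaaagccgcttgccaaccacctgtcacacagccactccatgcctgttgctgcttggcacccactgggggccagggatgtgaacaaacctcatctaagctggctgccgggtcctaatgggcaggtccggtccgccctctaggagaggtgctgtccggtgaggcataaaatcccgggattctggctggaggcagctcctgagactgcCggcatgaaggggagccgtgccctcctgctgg
A TRF2 peak preceded both windows, 958 bases from the SCGB1C1 window (fold 4.88, 15 reads at the summit) and 900 bases from the SCGB1C2 window (fold 7.17, 23 reads). The 11p summit lay inside the annotated span of SCGB1C1, whereas the 17p summit lay outside SCGB1C2, 1.21 kb from it. The telomere repeat unit, TTAGGG or CCCTAA on the strand printed, was present once in each of these 2 windows and in none of the other 10 within 3 kb of a peak. It occurred in 9.05% of all promoter windows. Reads from such copies can align equally well to more than 1 end. How the authors placed them is not stated in the labels, so a peak's end is the end to which its reads were assigned.

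Most ends carried at least 1 peak. A peak was found at 36 of the 44 ends, with a median of 3 peaks at those 36 and a range of 1 to 20. The 8 ends without any were the short arms of the acrocentric chromosomes 13, 14, 15, 21 and 22, where the outermost RefSeq gene starts at least 5010 kb from the end, and 2p, 8q and 16p. At 16p the first gene, DDX11L10, starts 11.6 kb from the end, against 11.9 kb for DDX11L1 at 1p. The peaks were unevenly shared: 6 ends with 10 or more peaks each (1p 20, 4q 17, 4p 12, 3q 11, 18p 11 and 10q 10) held 81 of the 162, or 50%. A single peak was found at 11 ends, and at 7 of these it was a terminal one within 20 kb.

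**Figure D1:**
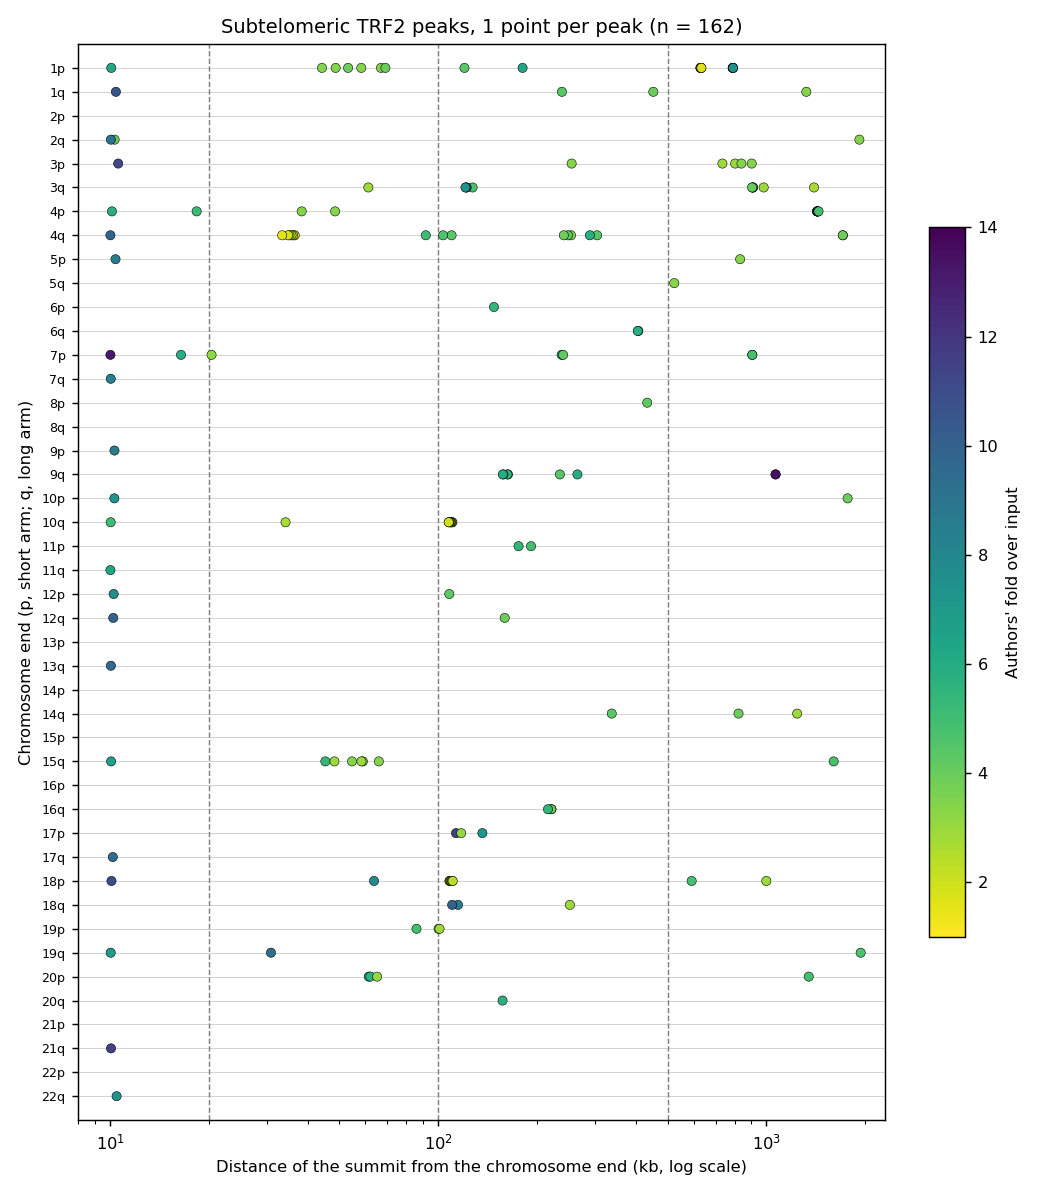
Each point is 1 TRF2 peak, placed by the distance of its summit from the chromosome end (kb, log scale) and by end, and coloured by the authors' fold over input; dashed lines mark 20, 100 and 500 kb. The 22 ends with a terminal peak line up at 10.0 to 10.6 kb, while the inner peaks fall in groups that differ between ends.

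Peak density fell with distance from the end. The outermost 20 kb held 25 peaks, or 28.4 per Mb (18.4 to 41.9, exact Poisson), and from 20 to 100 kb it was 8.52 per Mb (5.75 to 12.2, 30 peaks). From 100 to 500 kb it was 3.41 per Mb (2.60 to 4.39, 60 peaks), and from 500 to 2000 kb it was 0.712 per Mb (0.523 to 0.947, 47 peaks). The intervals of these classes do not overlap. The 3164 peaks on the rest of the arms, outside centromere, heterochromatin and stalk bands and 2 Mb around centromeres, had 1.26 per Mb. Without 1q and 8q that density was 1.03 per Mb. Relative to 1.26 per Mb the outermost 20 kb was 22.6 times as dense (exact interval 14.6 to 33.4), 20 to 100 kb 6.77 times (4.56 to 9.69) and 100 to 500 kb 2.71 times (2.06 to 3.50). From 500 to 2000 kb the ratio was 0.566 (0.415 to 0.754), so over all listed peaks and these lengths that zone was sparser. The ratio was not worked out without 1q, 8q and the acrocentric short-arm ends, which count in the length but held no peak. The lower density held for peaks with a −log10 q under 5 (0.545 against 1.13 per Mb, ratio 0.481, 0.336 to 0.667). Where −log10 q reached 5 the densities were 0.167 and 0.124 per Mb (ratio 1.35, 0.666 to 2.44), and where fold reached 5 the ratio was 1.55 (0.733 to 2.90), so for those peaks no difference was detectable. Neighbouring peaks are not independent, since 63 of the 162 lay in 21 groups with gaps of at most 1 kb, so these intervals are too narrow. Counted as loci, the classes held 24, 24, 40 and 32. All lengths include unknown bases.

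Fold did not fall step by step. Its median was 8.40 within 20 kb (quartiles 6.28 and 9.87), 3.41 at 20 to 100 kb (2.93 and 3.90), 4.35 at 100 to 500 kb (2.93 and 5.51) and 3.90 at 500 to 2000 kb (3.29 and 4.88). Only the outermost class stood apart, and the 3 inner ones overlapped each other and the other arm peaks (median 3.71, quartiles 3.41 and 3.90). When only −log10 q of at least 5 was kept, the outermost median was 1.15 times that at 500 to 2000 kb, against 2.15 times over all peaks. The classes at 20 to 100 kb and 100 to 500 kb were not compared with the outermost at that threshold. Beyond 20 kb, Spearman's rho of fold against distance was 0.27 over 137 peaks, which share 1 pair of libraries. The peaks with the highest folds beyond 20 kb were in the class farthest from the end, at 4p (13.7) and 9q (13.5).

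**Figure D2:**
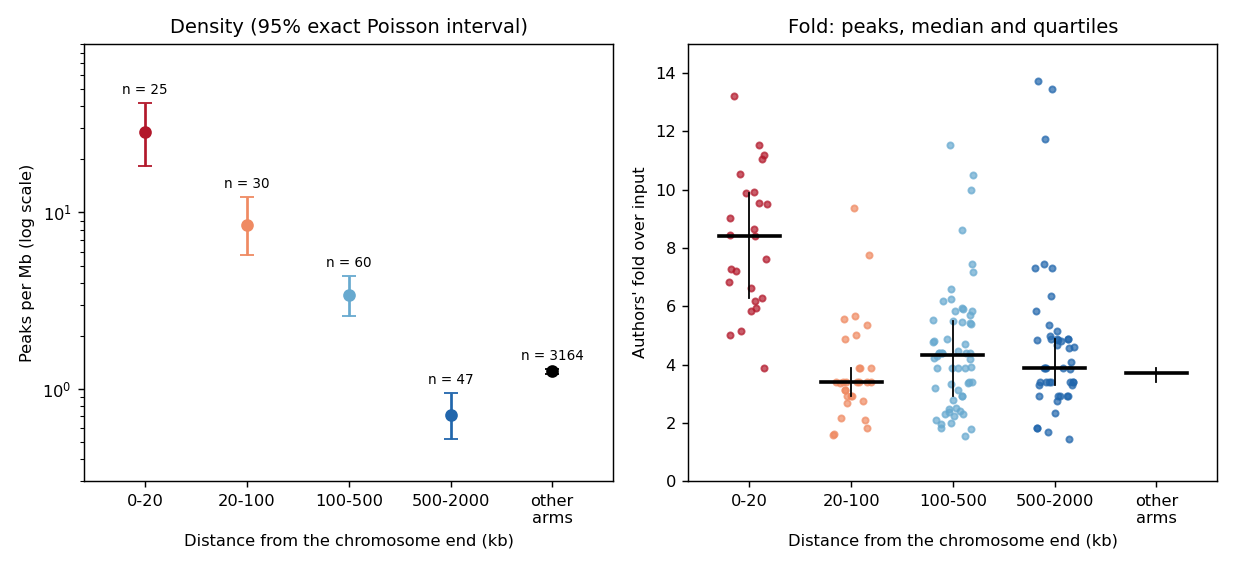
Left, peaks per Mb (log scale) in 4 distance classes and on the other arms, with exact Poisson intervals. Right, the authors' fold of each subtelomeric peak with the median (bar) and quartiles (line) of each class. Density steps down from 28.4 to 0.712 per Mb, whereas median fold over all peaks is 8.40 in the outermost class and 3.41 to 4.35 in the others; where −log10 q reaches 5 the outermost median is 1.15 times that at 500 to 2000 kb.

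Strong peaks were frequent close to the ends. A −log10 q of 5 or more was reached by 77 of the 162 (47.5%, exact binomial interval 39.6% to 55.5%), against 30.0% of all listed peaks and 9.83% of the other arm peaks. By class the strong peaks were 23 of 25, 11 of 30, 32 of 60 and 11 of 47, going inward. The 11 strong peaks at 500 to 2000 kb (23.4%) came from 6 loci: a cluster at 4p held 4, LINC01409 held 3, the mitochondrial gene copies at 1p held 2, and EXD3 and SENP5 held 1 each. A fold of 5 or more was reached by 59 of the 162, against 25.2% of all listed peaks and 7.77% of other arm peaks. The median number of TRF2 reads at the summit, worked out from each deposited fold and p-value, was 15 (range 5 to 136), against 7 on the other arms. The input was also deeper: its background was above its genome-wide minimum of 1.05 reads at all 25 peaks within 20 kb and stood at that minimum at 55 of the 162 peaks, against 78.2% of other arm peaks.

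Terminal peaks lay at nearly the same distance from every end that had one. The strongest peak within 20 kb was taken at each of the 22 ends that had one, 9 of them short-arm and 13 long-arm ends. Its summit lay 10029 to 10592 bases from the first or last coordinate, and its outer edge lay between 9968 and 10031 bases, with 20 of 22 outer edges less than 10 kb from the end. The outermost stretch of most chromosomes in hg38 is unknown sequence, whose limits were not read here. None of the 25 peaks within 20 kb had its summit in a gene, and at all 22 ends the outermost RefSeq gene begins further in than the terminal summit.

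The terminal folds ran from 5.03 to 13.2. The end of 7p was highest, with a fold of 13.2 from 57 reads over a background of 3.38. It was followed by 21q (fold 11.5, 95 reads over 7.33), 3p (11.2, 67 over 5.08), 18p (11.1, 60 over 4.51) and 1q (10.6, 81 over 6.77). The lowest were 10q (5.03, 75 over 14.1), 4p (5.85, 84 over 13.5) and 1p (6.19, 68 over 10.2). Ends at the top and bottom of this order therefore had similar read counts and different backgrounds. The most reads were at 12q (121, fold 9.93), 5p (117, fold 8.44) and 12p (114, fold 7.61), and the fewest at 9p (32, fold 8.64). Across the 22 ends Spearman's rho of fold with background was −0.66 and with reads −0.16, as a description, since background is the divisor of fold and no pileup in the list passed 138 reads. Every one of the 22 had a −log10 q of at least 18.8.

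**Figure D3:**
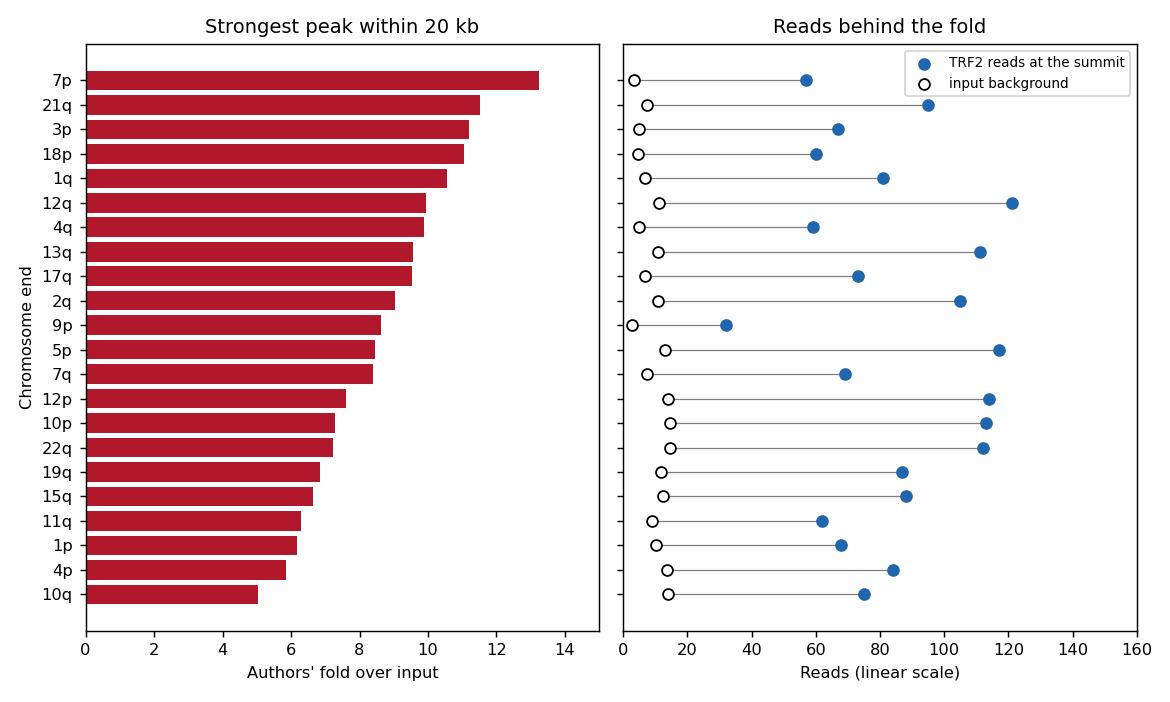
Strongest peak within 20 kb of each of the 22 chromosome ends that had one, ordered by fold. Left, the authors' fold over input; right, TRF2 reads at the summit (filled) and input background (open). Fold falls from 13.2 at 7p to 5.03 at 10q while reads stay between 32 and 121.

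Short-arm and long-arm terminal peaks had similar medians of fold (8.44 and 9.05), and their widths overlapped. Width had a median of 618 bases (233 to 1828) at the 9 short-arm ends and 224 (122 to 984) at the 13 long-arm ends. The widest was at 5p, from 9974 to 11801 on chromosome 5, and the narrowest, 122 bases, were at 4q and 7q. A further peak within 20 kb was listed at 3 ends: 7p (16.5 kb from the end, fold 5.96), 4p (18.4 kb, fold 5.17) and 2q (10.3 kb, fold 3.88). Over all distances the short arms had 77 peaks and the long arms 85, a density ratio of 0.906 (exact interval 0.657 to 1.25), so no difference was detectable. Within classes the ratio was 0.786 (0.323 to 1.86), 0.875 (0.396 to 1.91), 0.579 (0.326 to 1.00) and 1.76 (0.942 to 3.41), going inward. These intervals include 1, and the short arms include 5 acrocentric ends without peaks.

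**Figure D4:**
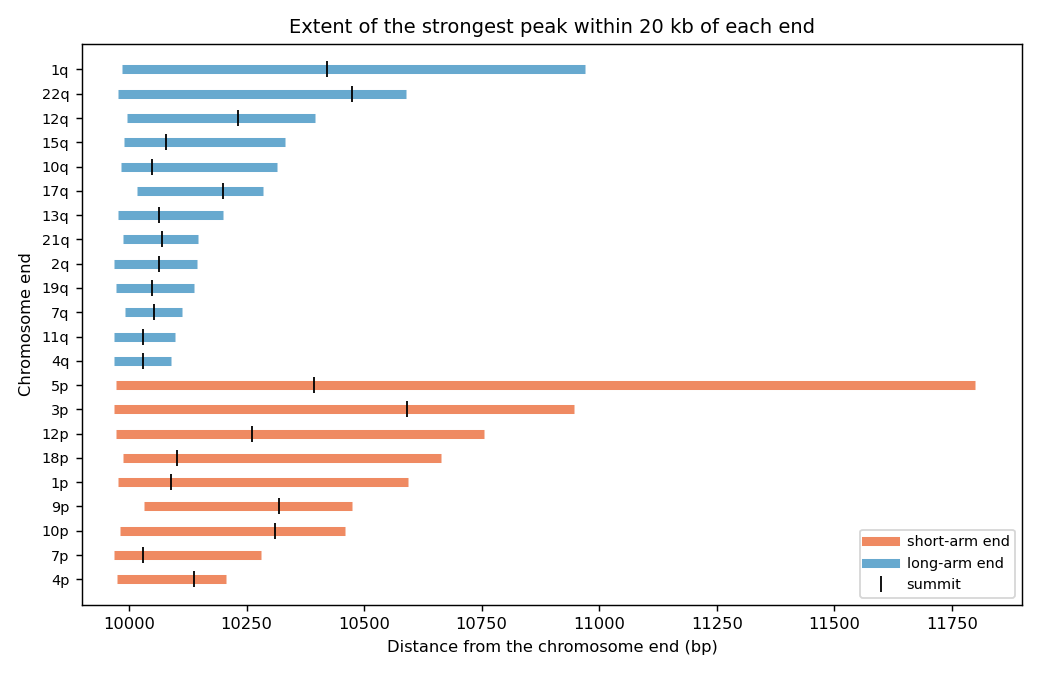
Extent of the same 22 peaks in bases from the chromosome end, short-arm ends in orange and long-arm ends in blue, with the summit as a black tick. Outer edges fall between 9968 and 10031 bases at every end, and inner edges run from 10089 at 4q to 11800 at 5p.

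DDX11L pseudogenes are copies of the end of a DNA helicase gene that lie next to the telomere of several chromosomes. A peak lay within 3 kb of 5 of the 6 DDX11L copies within 2 Mb of an end, where 2.62% of all 3088 genes had one and 3.02% of genes on the rest of the arms. These were DDX11L8 at 12p (fold 7.61), DDX11L5 at 9p (8.64), DDX11L9 at 15q (6.64) and DDX11L1 at 1p (6.19), all beside terminal peaks, and DDX11L17 at 1p, beside an internal peak 181 kb from the end (fold 6.24, 51 reads). The copy without a peak was DDX11L10 at 16p. The DDX11L copies and all genes were not matched for distance from the end. The neighbouring WASH genes, which encode an actin-nucleation factor of endosomes or are its pseudogenes, had none within 3 kb at 7 of 7 copies. This follows from the distance chosen, since 5 of the 7 lay 4.14 to 4.51 kb from the same peaks that lay 1.61 to 2.05 kb from DDX11L copies.

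At 14 ends the first peak came later than 20 kb. At 20p, 3 strong peaks lay 61.4, 62.1 and 65.1 kb from the end (fold 5.55, 5.69 and 3.13, with 39, 56 and 48 reads), outside the first gene, DEFB125, at 87.7 kb. At 18q, peaks of fold 9.98 (116 reads) and 8.61 (61 reads) lay at 110.3 and 114.9 kb, also outside the first gene, PARD6G, at 125.8 kb. The 18q peak at 80262841 to 80263297 matched terminal peaks in depth, with a background of 10.7 and a −log10 q of 71.0. At 17p the strongest peak lay 113.3 kb from the end (fold 11.5, 69 reads) in the noncoding gene LOC101929823. How far unknown sequence reaches at these ends was not analysed here.

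Peaks between 20 and 100 kb came from few ends. All 30 were at 11 ends, and 4q (7), 1p (6) and 15q (6) held most. Those of 1p and 15q were weak, with 5 to 10 reads over the minimum background and folds of 2.93 to 5.37, and none was strong. They lay 44.3 to 69.1 kb on 1p and 45.3 to 65.9 kb on 15q, near copies of olfactory receptor genes. OR4F5 on 1p held 2 peaks (fold 3.41 and 3.90), and OR4F4 on 15q, a pseudogene in RefSeq, had 1 within 3 kb (fold 3.41). The other 15 of 17 OR4F genes had none, so 2 of 17 had a peak within 3 kb, against 2.62% of all genes within 2 Mb of an end. In contrast, 19q had a focal peak 30.9 kb from the end (fold 9.38, 27 reads over 1.99) in LOC107987272. The 18p peak at 63.7 kb (fold 7.75, 33 reads) lay in TUBB8B, a beta-tubulin gene of the subtelomeric TUBB8 family. In that family 1 of 5 members had a peak within 3 kb, against the same 2.62%.

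FAM157 genes, a family of long noncoding RNA genes copied between ends, carried a peak at 4 of 4 copies, against 2.62% of all genes within 2 Mb of an end. FAM157A at 3q held 4 peaks 121 to 127 kb from the end, with folds of 4.77, 3.38, 10.5 and 7.45 from the centromeric to the telomeric side. FAM157B at 9q held 4 of even strength (fold 4.83 to 5.90, 12 to 17 reads), FAM157C at 16q held 3 (3.34 to 5.50) and FAM157D at 7p held 1 (3.15). The highest, in FAM157A, had 57 reads over a background of 4.51. In all, 12 of the 162 peaks lay in these 4 genes, 6 of them strong. The outer edges of the 4 genes lie 19.6 to 161 kb from an end, where peaks were denser than further in. Their share and that of all genes were not matched for gene length or distance.

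The subtelomeric families as a list, taken by symbol, had a peak within 3 kb at 22 of 135 genes within 2 Mb of an end (16.3%, exact interval 10.5% to 23.6%), against 81 of all 3088 genes there (2.62%). The 22 belonged to 9 families plus FBXO25: OR4F, DDX11L, TUBB8, CICP, DUX4, FRG1, SEPTIN14P, FAM157 and SCGB1C. None was found at 18 RPL23AP, 6 MIR1302 or 5 FAM138 genes, numbers too small to tell 0 from a share of 2.62%. For RPL23AP the result also depends on the distance chosen. Copies such as RPL23AP87 at 17q and RPL23AP25 at 1q lay 6.44 and 8.90 kb from terminal peaks. The list holds many neighbours and copies, which are not independent. Protein-coding genes were rarely near these peaks, at 17 of 1267 (1.34%, 0.784% to 2.14%), against 5.09% of protein-coding genes on the rest of the arms, which are longer (median 26.2 kb against 13.97 kb). Summits lay in a gene at 77 of 162 peaks (47.5%), and genes cover 58.6% of the bases in these windows. On the other arms 51.9% of summits lay in a gene, where genes cover 59.9% of the bases. By distance class the counts were 0 of 25, 12 of 30, 35 of 60 and 30 of 47, going inward, so the outermost peaks lowered the share.

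Of 5 genes described as sensitive to telomere looping or position that lie within 2 Mb of an end, DUX4 had a peak within 3 kb. That is 20% (exact interval 0.505% to 71.6%), an interval that includes the 2.62% of all genes there. TERT, which encodes the catalytic subunit of telomerase, lies 1253 kb from the 5p end and 421 kb from the nearest peak. ISG15, an interferon-induced ubiquitin-like protein gene at 1p, was 222 kb from the nearest, FRG2 at 4q 51.2 kb and BET1L, a Golgi transport gene at 11p, 11.1 kb. RTEL1, a helicase that unwinds telomere loops, was 591 kb from the nearest peak at 20q. FRG1 at 4q, a gene beside the facioscapulohumeral dystrophy region, held 1 weak peak and had another within 3 kb of it (fold 3.41 and 4.39, 6 and 8 reads).

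Some internal peaks had folds as high as terminal ones. The 22 terminal peaks had medians of 82.5 reads, a background of 10.4 and a −log10 q of 43.8. The highest −log10 q at the 9q, 4p and 1p sites below was 31.4, 30.5 and 28.3. At 9q, 2 peaks lay in EXD3, a gene of the exonuclease family, 1066 and 1067 kb from the end, and the stronger had a fold of 13.5 from 38 reads over a background of 1.90. At 4p, 8 peaks spread over 1427657 to 1441967, with folds of 4.83 to 13.7 and no RefSeq gene within 3 kb of any. The highest of these, 896 bases wide at 1434754 to 1435649, had 36 reads over 1.69. At 1p, 5 peaks lay within 789529 to 791636 in LINC01409, a long noncoding RNA gene, with folds of 7.32, 4.61, 5.17, 11.7 and 7.47 in order from the end. The last had 57 reads over a background of 6.77, whereas the others had 10 to 24 reads over 1.05 to 2.26. These 3 sites held 15 of the 47 peaks beyond 500 kb. Weaker pairs lay in FAM120B at 6q (fold 6.17 and 5.83), FAM20C, a secretory-pathway kinase gene at 7p (6.59 and 4.19), and ADAP1 at 7p (3.86 and 4.84). At 3p, 5 peaks between 255 and 902 kb had only 5 or 6 reads and folds of 2.93 to 3.41. CHL1, a neural cell adhesion gene, held 1 of them and the noncoding gene LINC01266 held 3.

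Some peaks combined low fold with high read depth. At 4 sites with several such peaks each there were 27 of the 162, with folds of 1.45 to 3.29 (quartiles 1.83 and 2.40), 67 to 136 reads and a background of 23.7 to 75.6. At 4q, 6 peaks in DUX4 had folds of 1.60 to 2.76. At 10q, 8 peaks on the telomeric side of DUX4L20, the nearest 1.78 kb from it, had 1.82 to 3.20. Of 24 DUX4 family genes within 2 Mb of an end, 3 had a peak within 3 kb (DUX4, DUX4L20 and DUX4L15). This was a larger share than the 2.62% of all genes there, but neighbouring copies are not independent and distance was not matched. Lone peaks of the same range, not among the 27, lay near DUX4L15 at 10q (fold 2.69, 67 reads over 24.3) and in SENP5, a SUMO protease gene at 3q (fold 2.74, 90 reads over 32.2). At 18p, 7 peaks between 107899 and 110746, in and beside the pseudogene ROCK1P1, had 1.55 to 2.78. At 1p, 6 peaks between 629342 and 634063 had 1.45 to 3.29 and lay in a block of nuclear copies of mitochondrial genes (MTND1P23, MTND2P28, MTCO1P12 and MTATP6P1). The mitochondrial genome itself carried 22 listed peaks with a median fold of 1.56 over a background of 74.5. Of these 27 peaks, 19 were strong by q, so at these sites a high q went with a small fold. All 4 sites were grouped by their values after these were seen. Without these 27 peaks, the 110 others beyond 20 kb centred on a fold of 4.39 (median), with a median background of 1.06.

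**Figure D5:**
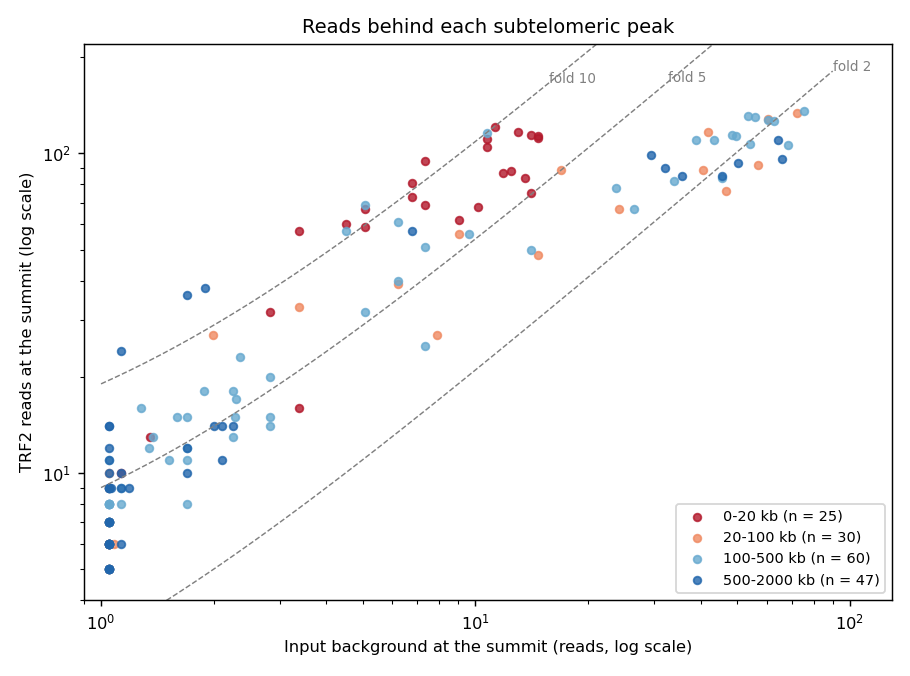
TRF2 reads at the summit against input background for each of the 162 peaks, both on log scales, coloured by distance class; dashed lines mark folds of 2, 5 and 10. The 22 terminal peaks (32 to 121 reads) lie above the line of fold 5, with 5 of them above fold 10, weak peaks stack at the minimum background of 1.05, and the 27 peaks of the 4 deep sites lie at backgrounds of 23.7 or more, below fold 5.

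Of the 92 annotated microRNA hairpins within 2 Mb of an end, none overlapped a peak and 2 (2.17%) lay within 3 kb of one, a share near the 2.62% of all genes there: MIR12136, 349 bases from a peak of fold 1.45 in the mitochondrial copies at 1p, and MIR8078, 1510 bases from a peak of fold 2.38 at 18p. The faintest peaks had 5 reads at the summit, so fainter binding near a chromosome end could not have been seen at this depth.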

How the data were processed

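Chromatin of HCT116 was sequenced as 1 TRF2 immunoprecipitate and 1 input. Tools in the submitters' processing notes are MACS2 2.1.0, ChIPseeker 1.36.0, HOMER and Bowtie2 2.3.2, with the builds GRCh38 and hg38, while settings and the handling of multiply aligned reads are not stated there. The authors' peak list gives per peak a fold over input (a ratio at the summit), a −log10 p-value and a −log10 q-value, and a deposited score, 10 times the −log10 p without decimals, and a summit offset in bases. All are the authors' own and serve only for ranking, filtering and description within their list.

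Reads and input background at each summit were recovered as the whole-number pileup that matches both fold, as pileup plus 1 over background plus 1, and the upper Poisson tail (100% of peaks within 0.001 on −log10 p). Tested on 3764 simulated peaks, the recovery gave the right pileup in 100%. Those peaks were built with the same formula and whole-number pileups, so this checks the calculation and not whether the formula holds for the authors' list. Library totals were not analysed here, so depth is given per peak. Distances run from position 1 or the last base of the chromosome, with bands and lengths from circlize 0.4.16 (R 4.3.3). Coordinates are 1-based. Genes came from a RefSeq table without strand or exons, and rows out of coordinate order (other sequences) were left out. Intervals are exact binomial, Poisson or conditional. Scripts ran on Python 3.11.15 with biopython 1.88, matplotlib 3.10.9, pandas 2.3.3, scipy 1.17.1 and numpy 2.4.6.

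Named regions were, by rule, the strongest peak within 20 kb of each end, the 10 of highest fold in each inner class, and groups with gaps of at most 1 kb, with genes within 3 kb. Genes in families were taken by symbol. The members, distance classes and lists were chosen with earlier results of these data known. No comparison between samples and no paired analysis was made, since each group has 1 library.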

Additional observations from a re-analysis of the deposited data

How the results depend on the processing

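Of 40 alternative values, 35 stayed within the interval of the reported value or, for counts, within 1.5 times it. These 35 include the density ratios between classes without the acrocentric short-arm ends, which could not move. Those ends held no peak and shorten every class by the same factor. The 5 that moved were these. Restricting the list to −log10 q of at least 5 left 77 of the 162 peaks, raised the density of the outermost 20 kb over 500 to 2000 kb from 39.9 to 157 times, raised that of 100 to 500 kb from 4.79 to 10.9 times, and lowered the median fold of the outermost class over 500 to 2000 kb from 2.15 to 1.15 times. The remaining alternative compared the same 2 classes on median reads at the summit in place of fold, over all peaks without that restriction, and gave 8.33 times. With q under 0.05 there were 131 peaks and an outermost density ratio of 56.8, and with loci in place of peaks 120 and 56.2. Adding the ends of X and Y raised the count to 231, most of it at Yq, and the ends with a terminal peak from 22 to 24. That count was 22 with windows of 15 and 50 kb and among strong peaks. Without 1p, the end with the most peaks, the short-arm to long-arm ratio was 0.703, and without the acrocentric chromosomes 1.08. Removing the 4 deep sites, an alternative chosen after seeing the data, left 4.12 times for 100 to 500 kb, and removing the outermost class, also chosen then, left the median fold at 1.05 times that of other arm peaks, against 1.19 with it. Peaks of 5 to 7 reads are at the limit of the list. No paired analysis was possible because each group has 1 library.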
